A study of Mus musculus with 15 samples.

Results

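The 10 genes described here stand for glucose breakdown and the response to low oxygen: Hif1a, Egln3, Slc2a1, Hk1, Hk2, Pgk1, Ldha, Pdk1, Bnip3 and Vegfa. They were chosen by name, and all 10 were found among the 38277 gene identifiers of the series. All 10 also averaged 1 FPKM or more (FPKM is a level from read numbers, scaled by gene length and by library size), the filter used before testing, as did 11951 genes over all libraries. The RNA that was sequenced came from JS1, a line of mouse hepatic stellate cells. Stellate cells are the liver cells that become matrix-producing myofibroblasts in fibrosis. Every library came from cells that lack their own TLR4 (TLR4-/-) and were given wild-type TLR4 back, so this background is shared by all groups. The 15 libraries fell into 4 groups: 4 from cells with an XPO4 overexpression construct and TGFβ, 4 from empty-vector cells with TGFβ, 3 from XPO4 cells at baseline and 4 from empty-vector cells at baseline. XPO4 is exportin-4, a nuclear export receptor, and TGFβ is a cytokine that drives stellate cell activation. The labels name no promoter or species for the construct, no dose or duration of TGFβ, and do not say whether the cells were a pool or a clone.

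Hypoxia-inducible factor 1 is the transcription factor that switches on genes for survival in low oxygen. Its alpha subunit, the product of Hif1a, is made all the time, and with oxygen present the prolyl hydroxylases, Egln3 among them, mark it for destruction through the von Hippel-Lindau protein. Control is thus mostly on the protein, and the mRNA of Hif1a need not follow its activity. Known targets raise glucose uptake (Slc2a1, the transporter GLUT1), its trapping by phosphorylation (the hexokinases Hk1 and Hk2), the later steps of glycolysis (Pgk1, an ATP-yielding kinase, and Ldha, which turns pyruvate into lactate), the block on pyruvate entering mitochondrial oxidation (Pdk1, a pyruvate dehydrogenase kinase), the removal of mitochondria (Bnip3) and the growth of vessels (Vegfa). Egln3 is itself a target, which closes a feedback loop. Stellate cells that turn into myofibroblasts are known to raise glycolysis and to secrete VEGF.

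The DNA before the start sites is shown for 6 of the genes because the factor binds a short core sequence there in many of its targets. Hk1 is shown as the member that passed the test below, Hif1a, Pdk1, Bnip3 and Egln3 as the members whose levels moved together between libraries, and Ldha as the most abundant. Each line gives the 250 bases before a RefSeq start on GRCm38.p6, 5′ to 3′ on the gene's strand. Capitals mark the core of the hypoxia response element, searched as ACGTG and GCGTG on both strands (CACGT and CACGC on the printed strand). Matches can overlap, as in CACGTG, which counts at 2 start positions.
Hk1 (chr10:62340422-62340671, - strand): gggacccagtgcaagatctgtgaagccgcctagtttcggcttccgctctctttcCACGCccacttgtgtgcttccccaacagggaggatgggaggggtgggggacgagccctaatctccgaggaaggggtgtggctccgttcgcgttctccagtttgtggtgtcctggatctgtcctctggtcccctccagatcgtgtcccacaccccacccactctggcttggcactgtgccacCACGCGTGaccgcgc
Hif1a (chr12:73907617-73907866, + strand): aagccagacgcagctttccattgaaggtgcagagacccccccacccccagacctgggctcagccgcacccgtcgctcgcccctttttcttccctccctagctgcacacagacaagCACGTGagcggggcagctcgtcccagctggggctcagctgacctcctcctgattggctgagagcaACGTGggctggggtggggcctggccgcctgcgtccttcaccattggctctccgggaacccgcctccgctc
Pdk1 (chr2:71872974-71873223, + strand): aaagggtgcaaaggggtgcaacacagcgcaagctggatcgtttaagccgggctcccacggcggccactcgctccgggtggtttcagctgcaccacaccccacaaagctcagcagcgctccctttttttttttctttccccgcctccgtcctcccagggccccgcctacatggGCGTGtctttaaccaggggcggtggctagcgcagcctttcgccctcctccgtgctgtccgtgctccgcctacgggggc
Bnip3 (chr7:138909507-138909756, - strand): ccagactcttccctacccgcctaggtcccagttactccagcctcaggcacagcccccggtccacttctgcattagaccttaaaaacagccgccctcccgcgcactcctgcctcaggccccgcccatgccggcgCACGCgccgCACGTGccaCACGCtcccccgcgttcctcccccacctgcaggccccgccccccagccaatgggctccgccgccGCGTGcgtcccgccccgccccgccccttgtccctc
Egln3 (chr12:54203875-54204124, - strand): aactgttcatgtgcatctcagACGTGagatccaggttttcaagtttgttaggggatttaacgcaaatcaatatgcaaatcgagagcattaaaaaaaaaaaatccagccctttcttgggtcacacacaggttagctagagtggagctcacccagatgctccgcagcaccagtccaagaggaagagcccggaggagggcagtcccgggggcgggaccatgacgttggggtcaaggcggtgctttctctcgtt
Ldha (chr7:46845554-46845803, + strand): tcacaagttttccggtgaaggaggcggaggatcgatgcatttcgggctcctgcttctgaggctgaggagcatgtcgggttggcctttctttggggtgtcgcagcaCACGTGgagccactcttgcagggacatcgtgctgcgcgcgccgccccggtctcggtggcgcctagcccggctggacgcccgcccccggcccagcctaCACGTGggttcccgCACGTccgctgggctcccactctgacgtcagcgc
The Bnip3 and Ldha windows each held 5 match positions, the Hif1a and Hk1 windows 3 each, and the Pdk1 and Egln3 windows 1 each. The Hk1 and Pdk1 windows are each from 1 of 2 listed starts, and at the other start of either gene no match was found. The Ldha window is also from 1 of 2 starts, and the other held 1 match. Over all 10 genes, 11 of 14 windows held a match, against 38.6% of 32851 mouse windows of the same length, with a mean of 0.66 matches each. Such a match is a description of the sequence and not a measured binding site, and which start the cells used was not measured.

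The genes differed widely in level. Ldha had the highest level of the 10 in every library and averaged 614 FPKM over the 15 libraries, above 99.4% of the 11951 genes. Pgk1 came second in every library with a mean of 93.2 FPKM. Slc2a1 (64.9 FPKM), Vegfa (63.2 FPKM), Hif1a (46.6 FPKM) and Bnip3 (38.7 FPKM) formed a middle range. Hk2, Pdk1 and Hk1 averaged 28.1, 26.6 and 26.5 FPKM and changed places between groups. Egln3 was lowest in every library, with a mean of 12 FPKM, close to the middle of the expressed genes at the 45.1 percentile. FPKM is scaled by gene length, so these levels can be set side by side. Pgk1 and Ldha each have 2 pseudogenes named after them in the annotation, which makes their levels less certain. Pseudogenes under other names were not searched for any of the 10 genes.

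**Figure D1:**
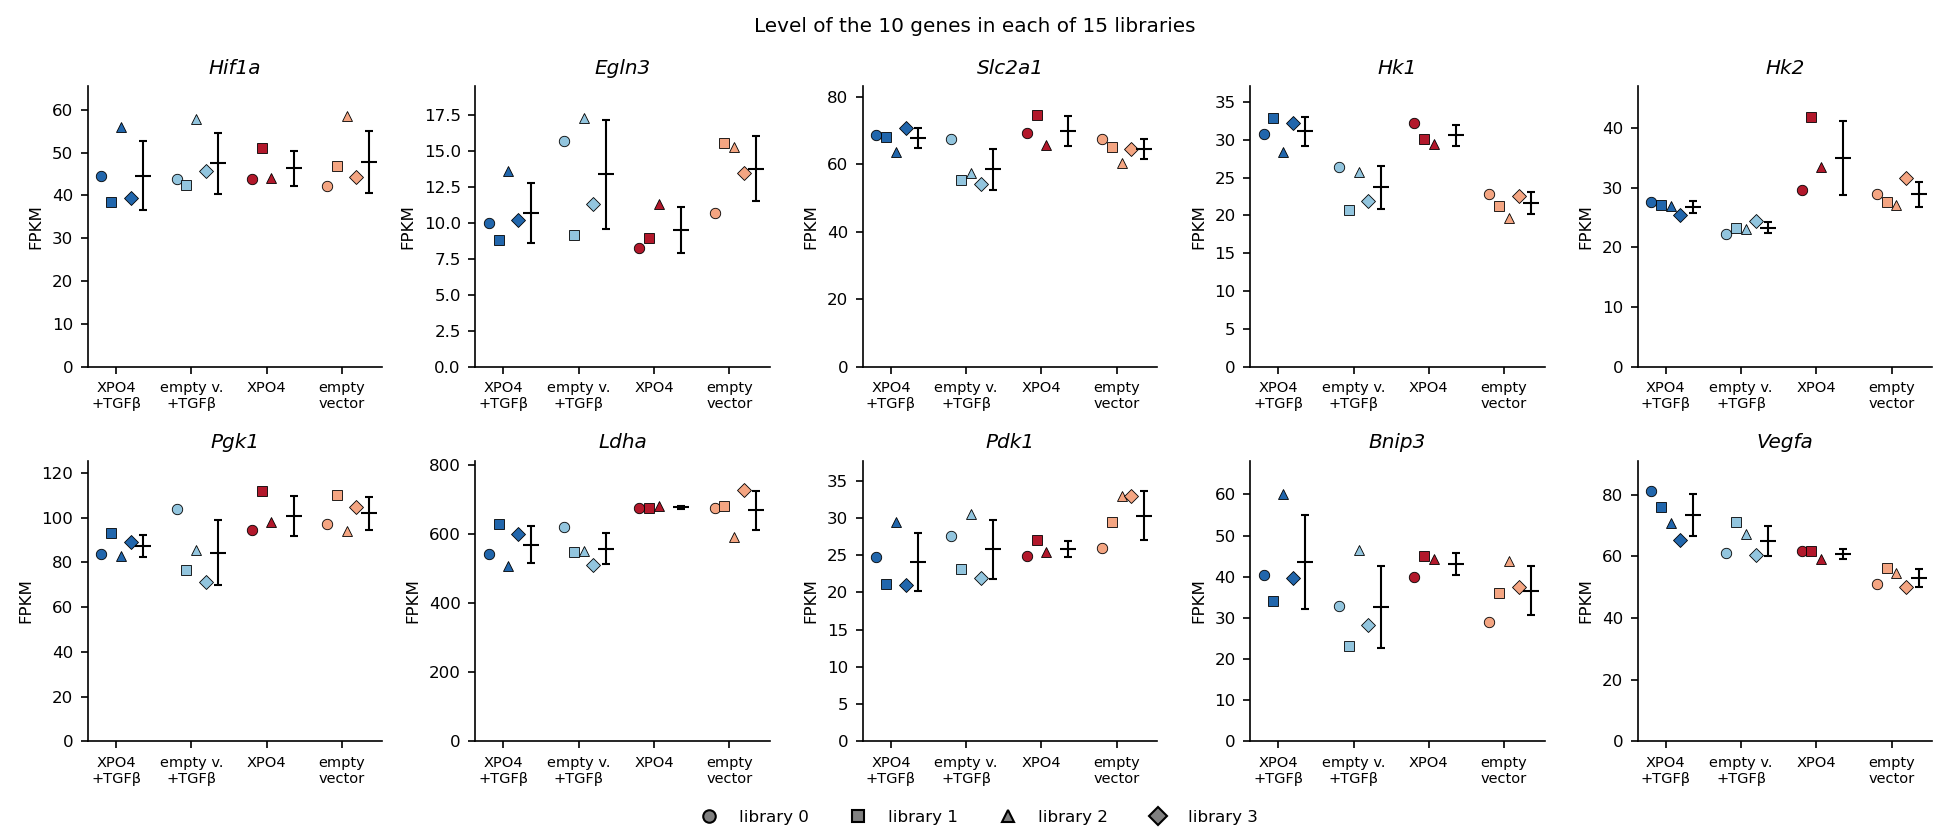
Level of each gene (y axis, FPKM, from 0) in every library of the 4 groups (x axis); the marker shape gives the library number and the bar beside the points the mean with its SD. Hk1 was higher in every XPO4 library than in every empty-vector library of the same treatment, while Hif1a, Pdk1 and Bnip3 showed groups that overlap throughout.

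No label calls the replicates separate cultures, so p-values reflect only how far libraries of a group lie apart, and that spread may be technical. Read depth is unknown, since no counts were given. Summed over all genes, a library's FPKM came to 480030 to 526338 and 11829 to 11971 genes reached 1 FPKM. Xpo4, the overexpressed gene, was at 12.8 to 16.2 FPKM in the XPO4 libraries with TGFβ, against 4.56 to 8.84 FPKM in the empty-vector libraries with TGFβ. At baseline it was at 14 to 17.4 FPKM in the XPO4 libraries, against 6.09 to 9.33 FPKM in the empty-vector libraries, so every XPO4 library was above every empty-vector library of its treatment. No label says which species the construct is from, and a human sequence could be counted only in part as mouse Xpo4, so these levels need not give the full expression of the construct. Of 10 stellate and mesenchymal markers, 8 reached 1 FPKM in at least 1 library. Among these were Pdgfrb, at only 0.133 to 1.25 FPKM over the 15 libraries, and Des, at 0.586 to 3.26 FPKM. Reln was at most at 0.295 FPKM. Acta2, the smooth muscle actin of activated stellate cells, was at 13.2 to 18.9 FPKM in XPO4 cells with TGFβ, against 41.6 to 50.7 FPKM in empty-vector cells with TGFβ. At baseline it was at 6.39 to 9.69 FPKM in XPO4 cells, against 18.8 to 21.4 FPKM in empty-vector cells. Of the 7 markers of this list that were tested, 0 were called higher in XPO4 cells by limma in either treatment, 1 was called lower with TGFβ (Acta2, log2 difference -1.46) and 2 at baseline (Acta2 with -1.22 and the collagen gene Col3a1 with -0.62). Beside these, 2.89% of all tested genes were called higher and 0.852% lower with TGFβ, and 2.85% and 0.864% at baseline. Under TGFβ 2 markers were called higher in XPO4 cells (Acta2 and Col1a1) and 3 in empty-vector cells (Acta2, Col1a1 and Col1a2), with 0 called lower in either. Beside these, 1.19% of all tested genes were called higher and 0.577% lower in XPO4 cells, and 1.24% and 0.536% in empty-vector cells. Lrat, which makes the retinyl esters of quiescent stellate cells, was listed at 0 in every library. The hepatocyte markers Alb, Ttr, Serpina1a and Cyp2e1, the macrophage marker Adgre1 and the biliary marker Epcam were also listed at 0 throughout. Other biliary markers were present, with Krt19 at up to 9.19 FPKM. The 4 biliary markers summed to 3.8 to 9.07 FPKM in XPO4 cells with TGFβ, against 6.89 to 11.1 FPKM in empty-vector cells with TGFβ. At baseline they summed to 6.22 to 9.01 FPKM in XPO4 cells, against 6.23 to 12.2 FPKM in empty-vector cells. The 5 endothelial markers summed to at most 3.34 FPKM in any library. The macrophage markers Cd68 and Csf1r reached 1 FPKM. The summed level of 5 macrophage and leukocyte markers was 4.5 to 7.74 FPKM in XPO4 cells with TGFβ, against 7.29 to 9.45 FPKM in empty-vector cells with TGFβ. At baseline it was 7.06 to 8.88 FPKM in XPO4 cells, against 8.81 to 9.79 FPKM in empty-vector cells. The part of these markers in the results below was not tested.

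The first comparison asked what XPO4 overexpression changed in untreated cells. Hk1, the first enzyme of glycolysis in most tissues, rose 1.42-fold in mean FPKM and was the only 1 of the 10 genes to pass the test. No member fell. Vegfa was also higher in every XPO4 library than in any empty-vector library, but its difference missed the threshold. Egln3 had the largest negative estimate, with overlapping groups. The other 7 members had estimates between -0.22 and 0.26 on the log2(FPKM + 1) scale and overlapped. Thus 1 of 10 members was called higher and 0 lower, beside 2.85% of the 11926 tested genes called higher and 0.864% called lower. All changes below are differences of mean log2(FPKM + 1), and adjusted p-values were computed with limma, corrected by the Benjamini-Hochberg method across the whole table of tested genes, with a threshold of 0.05.

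Among the oxygen-sensing genes, Hif1a was at 43.9, 51.1 and 44.1 FPKM in XPO4 cells and at 42.3, 46.8, 58.5 and 44.3 FPKM in empty-vector cells. Its libraries lay within each other's range, with a log2 difference of -0.04 (SE 0.12, 95% interval -0.31 to 0.23). Egln3 was at 8.28, 8.93 and 11.3 FPKM in XPO4 cells, against 10.7, 15.6, 15.3 and 13.5 FPKM in empty-vector cells. The hydroxylase was lowest in a pair of XPO4 libraries, and the third of them passed the lowest empty-vector library. Its log2 difference was -0.49 (SE 0.15, 95% interval -0.84 to -0.14), with an unadjusted p of 0.0117 and an adjusted p of 0.154 by limma.

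In glucose uptake and trapping, Hk1 stood apart. Its level was 32.2, 30.1 and 29.5 FPKM in XPO4 cells, against 22.8, 21.3, 19.6 and 22.6 FPKM in empty-vector cells. Every XPO4 library was above every empty-vector library, and the gap between the groups was wider than the range within either of them. Means were 30.6 ± 1.38 FPKM in XPO4 cells (SD, n = 3) and 21.6 ± 1.44 FPKM in empty-vector cells (SD, n = 4), a log2 difference of 0.49 (SE 0.08, 95% interval 0.30 to 0.67, adjusted p = 0.0122 by limma). In bulk RNA, more cells expressing a gene and more RNA per cell cannot be told apart. The call was lost without XPO4 library 0 (0.45, adjusted p = 0.0767 by limma) and without XPO4 library 1 (0.50, adjusted p = 0.0508 by limma). The FPKM sum was 505242 to 526338 in XPO4 libraries, against 485449 to 508287 in empty-vector libraries. With each library divided by its own sum (the TPM scale) the Hk1 difference was 0.45 with an adjusted p of 0.0141 by limma. The labels' library codes form 2 runs, not stated to be batches, and within them the difference was 0.48 (libraries 0 and 1) and 0.47 (library 2 of XPO4 cells, libraries 2 and 3 of empty-vector cells).

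Hk2, the inducible hexokinase, was at 29.7, 41.8 and 33.5 FPKM in XPO4 cells and at 29, 27.6, 27.1 and 31.7 FPKM in empty-vector cells. XPO4 library 1 lay far above the rest and XPO4 library 0 within the empty-vector range. The log2 difference was 0.26 (SE 0.12, adjusted p = 0.35 by limma), and without XPO4 library 1 it was 0.13. Slc2a1 was at 69.4, 74.6 and 65.7 FPKM in XPO4 cells and at 67.7, 65.2, 60.5 and 64.7 FPKM in empty-vector cells. The transporter's groups overlapped narrowly, with a log2 difference of 0.11 (SE 0.07, adjusted p = 0.545 by limma).

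In the lower part of glycolysis the groups of Pgk1 and Ldha lay on top of each other. Pgk1 was at 94.6 to 112 FPKM in XPO4 cells and at 94.1 to 110 FPKM in empty-vector cells, with a 95% interval of the log2 difference from -0.20 to 0.19. Ldha averaged 677 ± 4.2 FPKM in XPO4 cells (SD, n = 3) and 668 ± 57.1 FPKM in empty-vector cells (SD, n = 4), with a 95% interval from -0.15 to 0.20. Pdk1 was at 24.9, 27 and 25.5 FPKM in XPO4 cells and at 26, 29.5, 32.9 and 32.9 FPKM in empty-vector cells. Only XPO4 library 1 reached the lowest empty-vector library, and the log2 difference was -0.22 (SE 0.10, adjusted p = 0.337 by limma).

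Of the remaining targets, Bnip3 was at 39.9, 45.1 and 44.2 FPKM in XPO4 cells and at 29.1, 36.1, 43.7 and 37.5 FPKM in empty-vector cells. The groups of this mitophagy receptor overlapped through empty-vector library 2, with a log2 difference of 0.24 (SE 0.13, adjusted p = 0.432 by limma). Vegfa was at 61.6, 61.8 and 59.1 FPKM in XPO4 cells, against 51.2, 56.3, 54.6 and 50.1 FPKM in empty-vector cells. The groups of the growth factor did not overlap, with a log2 difference of 0.20 (SE 0.07, unadjusted p = 0.0211, adjusted p = 0.215 by limma). Groups did not overlap, with XPO4 higher, for 2 of 10 members and for 8.23% of all tested genes, and with XPO4 lower for 0 of 10 members and for 7.93% of all tested genes. At an unadjusted p under 0.05 by limma, 2 of 10 members were higher (Hk1 and Vegfa) and 1 lower (Egln3), beside 8.2% and 7% of all tested genes.

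**Figure D2:**
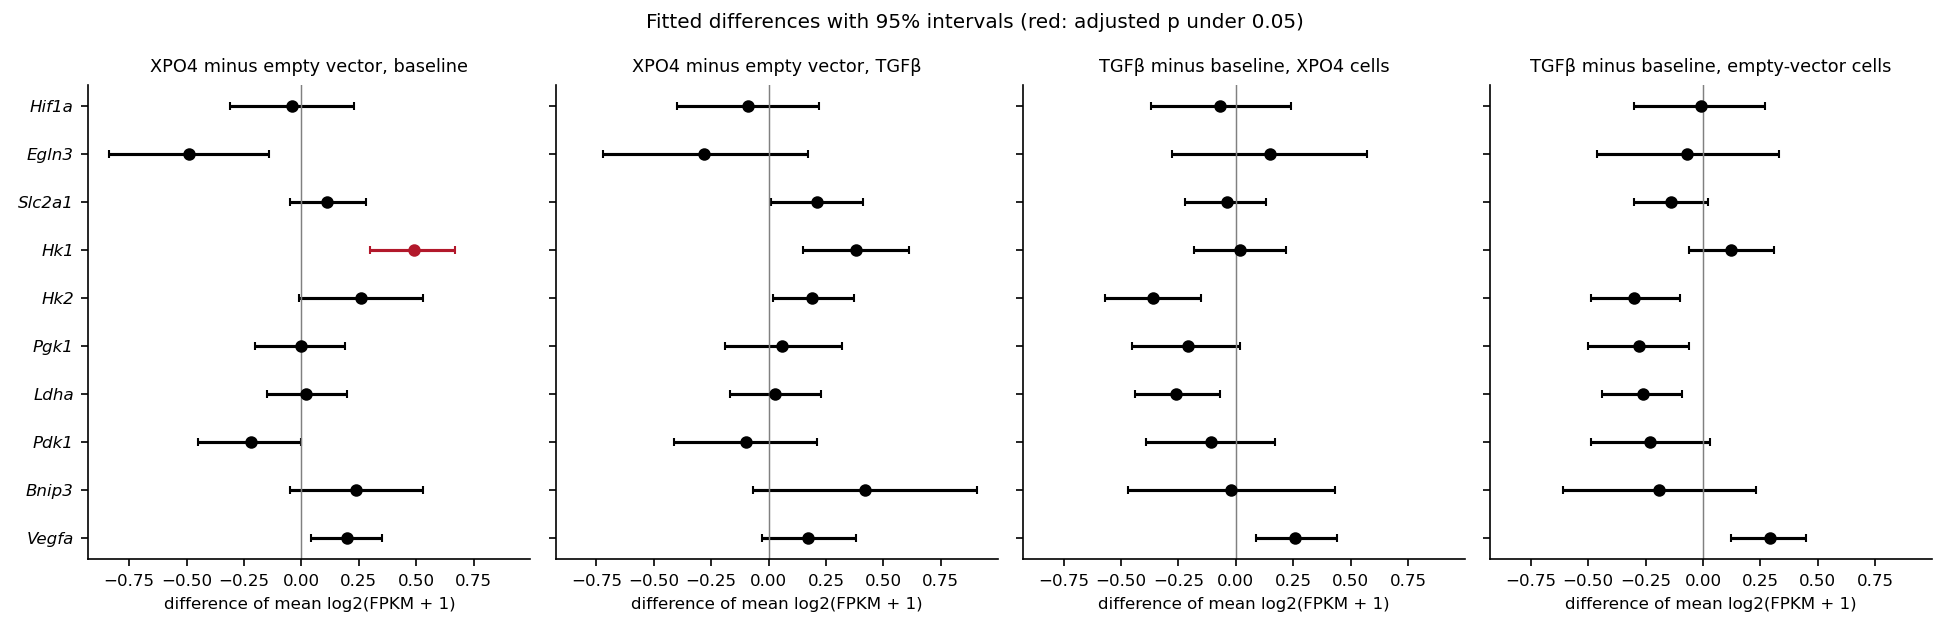
Fitted difference of mean log2(FPKM + 1) for each gene (x axis) with its 95% interval from limma, in the 4 comparisons between pairs of groups; red marks an adjusted p under 0.05. Hk1 at baseline, at 0.49, was the single difference that passed, and the intervals of Hk2 and Ldha lay below 0 under TGFβ in both kinds of cell while those of Vegfa lay above it.

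The second comparison asked the same of cells given TGFβ. No member passed the test with limma in either direction, while 3 of 10 had an unadjusted p under 0.05, all higher in XPO4 cells (Hk1, Hk2 and Slc2a1). Of all 11976 tested genes, 2.89% were called higher and 0.852% lower, and 7.66% were higher at an unadjusted p under 0.05. The 2 hexokinases were higher in every XPO4 library than in any empty-vector library, which was so for 6.03% of all genes.

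Hk1 was at 30.8, 32.9, 28.4 and 32.2 FPKM in XPO4 cells with TGFβ, against 26.4, 20.7, 25.8 and 21.9 FPKM in empty-vector cells with TGFβ. The groups did not overlap, although the empty-vector libraries spread more than at baseline. Means were 31.1 ± 1.96 FPKM in XPO4 cells and 23.7 ± 2.86 FPKM in empty-vector cells (SD, n = 4 each), a log2 difference of 0.38 (SE 0.10, 95% interval 0.15 to 0.61, unadjusted p = 0.004, adjusted p = 0.084 by limma). This missed the threshold, and passed it with array weights (0.44, adjusted p = 0.0316 by limma) and with all 4 groups in 1 limma fit (0.38, adjusted p = 0.0148). It also missed it on the TPM scale (0.34, adjusted p = 0.119 by limma) and with quantile normalization (0.35, adjusted p = 0.105 by limma).

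Hk2 was at 27.6, 27.1, 26.9 and 25.4 FPKM in XPO4 cells with TGFβ, against 22.2, 23.3, 23.1 and 24.5 FPKM in empty-vector cells with TGFβ. The groups were tight and did not overlap, with a log2 difference of 0.19 (SE 0.08, unadjusted p = 0.0319, adjusted p = 0.281 by limma). Slc2a1 was at 68.6, 68, 63.6 and 70.9 FPKM in XPO4 cells with TGFβ, against 67.5, 55.3, 57.6 and 54.1 FPKM in empty-vector cells with TGFβ. Empty-vector library 0 was the one that overlapped, and the log2 difference was 0.21 (SE 0.09, unadjusted p = 0.0378, adjusted p = 0.308 by limma).

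Bnip3 had the largest estimate and the widest spread. Its level was 40.3, 34, 60.1 and 39.7 FPKM in XPO4 cells with TGFβ, against 32.9, 23.1, 46.4 and 28.2 FPKM in empty-vector cells with TGFβ. Library 2 was the highest and library 1 the lowest in both groups, so the groups overlapped, with a log2 difference of 0.42 (SE 0.22, 95% interval -0.07 to 0.91, adjusted p = 0.454 by limma). Vegfa was at 81.2, 76.1, 70.7 and 65.4 FPKM in XPO4 cells with TGFβ, against 61, 71, 67.2 and 60.6 FPKM in empty-vector cells with TGFβ. The groups overlapped, with a log2 difference of 0.17 (SE 0.09, adjusted p = 0.464 by limma).

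Egln3 was at 9.98, 8.83, 13.6 and 10.2 FPKM in XPO4 cells with TGFβ, against 15.7, 9.14, 17.3 and 11.3 FPKM in empty-vector cells with TGFβ. The empty-vector libraries covered nearly the whole XPO4 range, with a log2 difference of -0.28 (SE 0.20, 95% interval -0.72 to 0.17, adjusted p = 0.633 by limma). Hif1a, Pdk1, Pgk1 and Ldha overlapped widely, with log2 differences of -0.09, -0.10, 0.06 and 0.03. Hif1a was at 38.5 to 56.1 FPKM in XPO4 cells with TGFβ and at 42.4 to 57.8 FPKM in empty-vector cells with TGFβ. Ldha averaged 569 ± 54.4 FPKM in XPO4 cells with TGFβ and 557 ± 45.2 FPKM in empty-vector cells with TGFβ (SD, n = 4 each).

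Whether the XPO4 effect with TGFβ differed from that at baseline was tested as an interaction over all 15 libraries. No member passed with limma and 0 of 10 had an unadjusted p under 0.05, and over all 11951 genes 0% passed and 2.88% had an unadjusted p under 0.05. For Hk1 the effect with TGFβ minus that at baseline was -0.10 (95% interval -0.38 to 0.17), so the call at baseline and its absence under TGFβ do not show that the effects differ. The intervals were widest for Bnip3 (-0.44 to 0.79) and Egln3 (-0.37 to 0.79) and narrowest for Slc2a1 (-0.14 to 0.33) and Vegfa (-0.26 to 0.22).

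TGFβ itself was compared with baseline within each kind of cell. The treated and untreated libraries are in separate tables, so a difference in how the tables were made cannot be told apart from the treatment, and these comparisons share libraries with those above. Vegfa was higher and Hk2 lower in every treated library than in every untreated one of the same cells, in empty-vector and in XPO4 cells alike. Ldha and Pgk1 had negative estimates in both. No member passed the test with limma. In XPO4 cells 1 of 10 members was higher and 2 lower at an unadjusted p under 0.05, beside 5.2% and 4.86% of all genes. In empty-vector cells 1 of 10 was higher and 3 were lower, beside 5.81% and 5.68% of all genes. By adjusted p, 1.19% of all genes were called higher and 0.577% lower in XPO4 cells, and 1.24% higher and 0.536% lower in empty-vector cells.

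For Vegfa, the libraries given above put XPO4 cells with TGFβ at 73.3 ± 6.82 FPKM (SD, n = 4), against 60.8 ± 1.54 FPKM in untreated XPO4 cells (SD, n = 3). The log2 difference was 0.26 (SE 0.08, 95% interval 0.09 to 0.44, unadjusted p = 0.00645, adjusted p = 0.171 by limma). In empty-vector cells it was at 65 ± 5 FPKM with TGFβ, against 53 ± 2.88 FPKM without (SD, n = 4 each). The groups again did not overlap, with a log2 difference of 0.29 (SE 0.08, 95% interval 0.12 to 0.45, unadjusted p = 0.00203, adjusted p = 0.085 by limma), and the difference passed with array weights (0.30, adjusted p = 0.0461 by limma).

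Hk2 was at 26.8 ± 0.952 FPKM in XPO4 cells with TGFβ (SD, n = 4), against 35 ± 6.19 FPKM in untreated XPO4 cells (SD, n = 3). The log2 difference was -0.36 (SE 0.10, unadjusted p = 0.00227, adjusted p = 0.0871 by limma), and it passed without XPO4 library 0 at baseline (-0.47, adjusted p = 0.034 by limma). It stayed uncalled in 14 of 15 fits with 1 library left out. Over all 15 it ran from -0.47 to -0.23, with an adjusted p up to 0.413 by limma. In empty-vector cells Hk2 was at 23.3 ± 0.942 FPKM with TGFβ, against 28.9 ± 2.06 FPKM without (SD, n = 4 each), a log2 difference of -0.30 (SE 0.09, unadjusted p = 0.00549, adjusted p = 0.152 by limma). The hexokinases thus differed in their values under TGFβ: Hk1 had differences of 0.02 in XPO4 cells and 0.12 in empty-vector cells, with overlapping groups in both.

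Ldha was at 543, 628, 507 and 599 FPKM in XPO4 cells with TGFβ, against 674, 675 and 682 FPKM in untreated XPO4 cells. Every treated library lay below every untreated one, with a log2 difference of -0.26 (SE 0.09, unadjusted p = 0.0108, adjusted p = 0.228 by limma). In empty-vector cells it was at 619, 548, 551 and 510 FPKM with TGFβ, against 675, 682, 590 and 727 FPKM without. A single library of each group overlapped there, with a log2 difference of -0.26 (SE 0.08, unadjusted p = 0.00566, adjusted p = 0.154 by limma), which passed with array weights (-0.30, adjusted p = 0.0286 by limma). With 1 library left out it stayed uncalled in 15 of 15 fits, with adjusted p-values of 0.0789 to 0.366 by limma. Pgk1 was at 83 to 93.1 FPKM in XPO4 cells with TGFβ, against 94.6 to 112 FPKM in untreated XPO4 cells, with no overlap and a log2 difference of -0.21 (SE 0.11, adjusted p = 0.559 by limma). In empty-vector cells it was at 71.1 to 104 FPKM with TGFβ, against 94.1 to 110 FPKM without, a log2 difference of -0.28 (SE 0.10, adjusted p = 0.26 by limma). The high treated library was library 0, and without it the difference was -0.38 with an adjusted p of 0.0432 by limma. In 14 of 15 fits with 1 library left out Pgk1 stayed uncalled in empty-vector cells, with an adjusted p up to 0.558 by limma.

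In all, groups did not overlap in XPO4 cells for 1 member higher and 3 lower with TGFβ, beside 5.39% and 4.46% of all genes. In empty-vector cells this held for 1 member higher and 1 lower, beside 4.25% and 3.57% of all genes. The remaining 6 members, Hif1a, Egln3, Slc2a1, Hk1, Pdk1 and Bnip3, overlapped in both kinds of cell, with log2 differences of -0.11 to 0.15 in XPO4 cells and -0.23 to 0.12 in empty-vector cells.

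The balance of the 2 hexokinases was looked at after these values had been seen, and is given without a test. The ratio of Hk1 to Hk2, both as FPKM, was 1.11, 1.21, 1.06 and 1.27 in XPO4 cells with TGFβ, against 1.19, 0.88, 1.12 and 0.89 in empty-vector cells with TGFβ. At baseline it was 1.08, 0.72 and 0.88 in XPO4 cells, against 0.78, 0.77, 0.72 and 0.71 in empty-vector cells. Hk1 was thus the more abundant hexokinase in 4 of 4 XPO4 libraries with TGFβ, in 2 of 4 empty-vector libraries with TGFβ, in 1 of 3 untreated XPO4 libraries and in 0 of 4 untreated empty-vector libraries. The summed level of both was 57.9 ± 1.92 FPKM in XPO4 cells with TGFβ, against 47 ± 2.3 FPKM in empty-vector cells with TGFβ (SD, n = 4 each). At baseline the sum was 65.6 ± 5.51 FPKM in XPO4 cells (SD, n = 3), against 50.4 ± 3.28 FPKM in empty-vector cells (SD, n = 4).

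**Figure D3:**
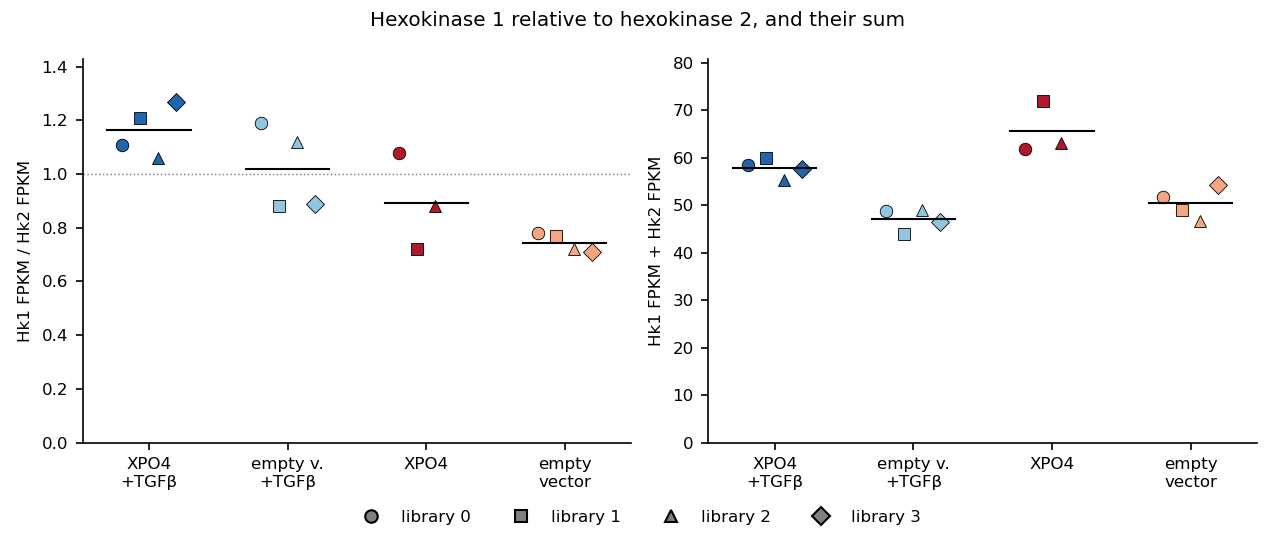
Ratio of Hk1 to Hk2 (left) and their sum (right, FPKM) in every library of the 4 groups, with a line at each group mean; the dotted line marks equal levels. The ratio lay above 1 in all 4 XPO4 libraries with TGFβ, at 1.06 to 1.27, and below 1 in all 4 untreated empty-vector libraries, at 0.71 to 0.78.

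Within groups the members did not vary independently. Each library's departure from its group mean was taken on the log2(FPKM + 1) scale, and Pearson's r and Spearman's rho were computed over the 15 libraries for all 45 pairs, as a description with no p-value. Hif1a, Pdk1, Bnip3 and Egln3 moved together, while other known targets among the members did not follow Hif1a, as given below. Bnip3 and Pdk1 had r = 0.90 (rho 0.90), Bnip3 and Egln3 r = 0.89 (rho 0.87), Bnip3 and Hif1a r = 0.88 (rho 0.77), and Pdk1 and Hif1a r = 0.80 (rho 0.70). The weakest of the 6 pairs in this set was Hif1a with Egln3, at r = 0.65 (rho 0.60). With the 2 libraries farthest from the median of the first gene left out, the 6 values were between 0.57 and 0.85.

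A second set held Slc2a1, Hk1, Pgk1 and Ldha, of glucose uptake and glycolysis. Slc2a1 had r = 0.82 with Pgk1, 0.73 with Hk1 and 0.68 with Ldha, Hk1 had r = 0.73 with Ldha, and Pgk1 had r = 0.72 with Ldha. With the 2 farthest libraries left out, the values of this set, Hk1 with Pgk1 included (r = 0.64), were between 0.47 and 0.77. Hk2 was not part of it, with r between -0.14 and 0.13 to these 4 genes. Between the sets the values ran from r = -0.69 for Hif1a with Ldha (rho -0.70) to r = 0.36 for Pgk1 with Egln3 (rho 0.34), which were -0.40 and 0.17 without the 2 farthest libraries. The departures also moved with the FPKM sum of a library, at r = -0.78 for Hif1a, -0.64 for Bnip3, -0.49 for Pdk1 and -0.47 for Egln3, and at r = 0.79 for Ldha, 0.64 for Slc2a1, 0.64 for Hk1 and 0.46 for Pgk1. The part of library make-up in these relations was not tested. Hk2 and Vegfa had r = -0.24 and -0.04 with that sum.

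Library number 2 was prominent in the first set. Bnip3 was above its group mean in library 2 of all 4 groups, by 0.04 to 0.54, and Egln3 likewise by 0.15 to 0.39. Hif1a and Pdk1 were above it in 3 of the 4 groups, and Slc2a1 was below it in all 4, by 0.02 to 0.09. Other numbers had such departures too. Vegfa was above its group mean in library 1 of all 4 groups, by 0.02 to 0.13. In all 3 libraries numbered 3, Hif1a was below it by 0.04 to 0.16, Egln3 by 0.01 to 0.18 and Vegfa by 0.08 to 0.16. The labels do not say that a library number marks a shared culture or day. Bnip3 and Egln3 had the widest departures of the 10 genes, spanning 0.97 and 0.86, against 0.31 for Slc2a1 and for Vegfa.

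**Figure D4:**
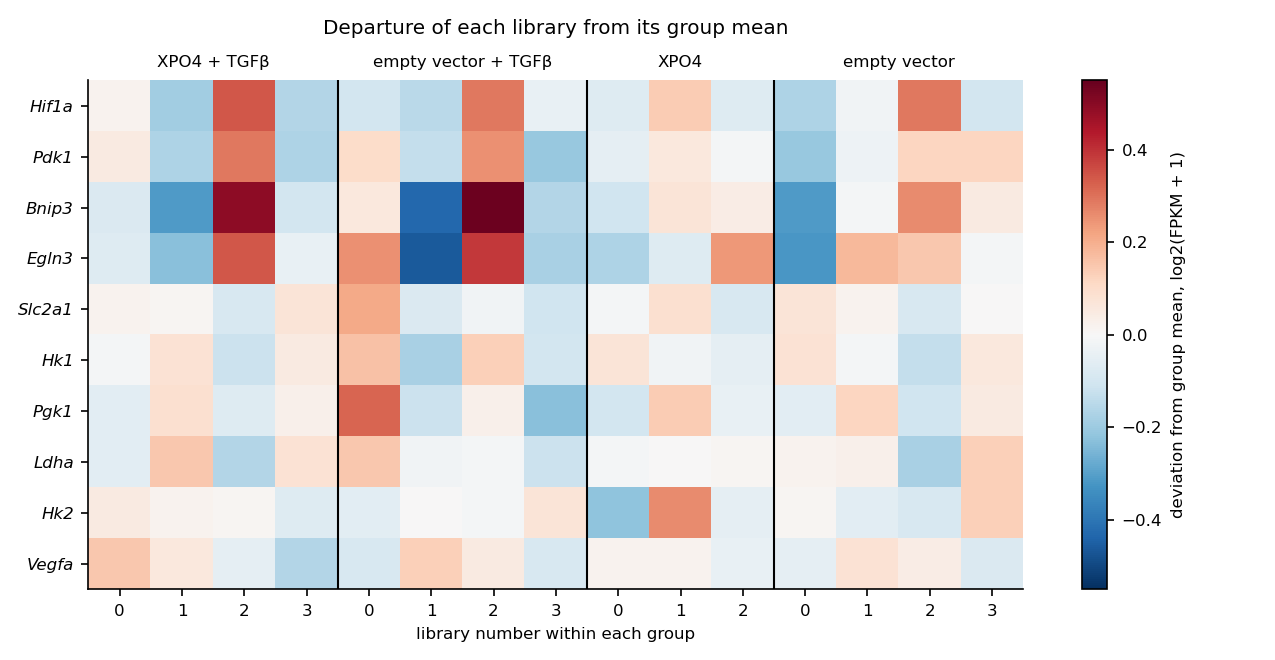
Departure of each library from its group mean (colour, log2(FPKM + 1)) for the 10 genes (rows) in the 15 libraries (columns, numbered within each group). The upper 4 rows share their colours in most libraries and are red in library 2 of both groups with TGFβ, where Bnip3 was up to 0.54 above its group mean.

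The genes whose level followed Hif1a most closely over the 15 libraries were Hiatl1 (r = 0.976), Nus1 (r = 0.956), Eif5 (r = 0.956), Cdc27 (r = 0.953) and Atf2 (r = 0.950), with r on log2(FPKM + 1) over 11951 genes. None of the other 9 members was among them. These values share the relation of Hif1a to the FPKM sum given above.

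Further genes of the same pathways were read out from the same fits. Of 24 other glycolytic enzymes, 17 could be tested at baseline and 16 in the other comparisons. None passed with limma for XPO4 at baseline or with TGFβ, and 0 had an unadjusted p under 0.05 in either. Their median log2 difference was 0.02 at baseline and 0.05 with TGFβ, and turned to -0.02 and -0.01 on the TPM scale. Under TGFβ 12 of the 16 had a negative estimate in XPO4 cells, with a median of -0.14, and 13 of the 16 in empty-vector cells, with a median of -0.17. Over all genes the median was -0.01 in either. None passed with limma in these comparisons. At an unadjusted p under 0.05, 1 was higher and 0 lower in XPO4 cells, beside 5.2% and 4.86% of all genes. In empty-vector cells 1 was higher and 3 lower, beside 5.81% and 5.68% of all genes.

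Of 22 genes for glucose and lactate transport and for pyruvate control, 17 were tested at baseline. Of these 1 rose and 0 fell, beside 2.85% and 0.864% of all tested genes. Pdk3, another pyruvate dehydrogenase kinase, was at 30.9, 25.7 and 29.2 FPKM in XPO4 cells, against 19, 19.3, 19.1 and 19.4 FPKM in empty-vector cells. The groups were far apart, with a log2 difference of 0.55 (adjusted p = 0.00722 by limma), whereas Pdk1 had -0.22. With TGFβ 18 were tested, of which 0 rose and 1 fell, beside 2.89% and 0.852% of all tested genes. Slc2a3, the neuronal-type glucose transporter GLUT3, was at 1.07, 0.941, 1.46 and 1.18 FPKM in XPO4 cells, against 2.23, 2.84, 2.94 and 2.32 FPKM in empty-vector cells. The groups did not overlap, with a log2 difference of -0.73 (adjusted p = 0.0425 by limma), a low level at which this scale understates the change. That call was lost with each library left out in turn except XPO4 library 2, with an adjusted p up to 0.139 by limma. It was also lost with all 4 groups in 1 limma fit (adjusted p = 0.135) and with the library set block (adjusted p = 0.0546). The difference was not particular to TGFβ. At baseline Slc2a3 was at 1.13, 2.09 and 1.19 FPKM in XPO4 cells, against 2.65, 4.13, 8.13 and 2.35 FPKM in empty-vector cells. The groups did not overlap there either, and the gene was not called. The ratio of mean FPKM was 0.34 at baseline and 0.45 with TGFβ. Under TGFβ 0 of 18 passed with limma in either kind of cell, with 0 higher and 1 lower at an unadjusted p under 0.05 in each. Of all genes, 5.2% were higher and 4.86% lower by unadjusted p in XPO4 cells, and 5.81% and 5.68% in empty-vector cells. In XPO4 cells 1 gene of the list was called lower with quantile normalization, median centring, the library set block and array weights.

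The oxygen-sensing system showed no call. Of 14 genes that include Arnt, the partner of Hif1a, and Vhl and the other prolyl hydroxylases, 12 were tested. None passed with limma in any of the 4 comparisons, and 0 had an unadjusted p under 0.05. Egln1 and Egln2, the hydroxylases related to Egln3, had log2 differences of -0.16 and -0.09 for XPO4 at baseline, against -0.49 for Egln3.

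Of 41 other known targets of the factor, 32 were tested. At baseline 1 rose and 1 fell, beside 2.85% of all tested genes called higher and 0.864% called lower. Cited2, a competitor for the coactivators that the factor uses, was at 198, 198 and 188 FPKM in XPO4 cells, against 144, 139, 139 and 142 FPKM in empty-vector cells. Every XPO4 library was above every empty-vector library, with a log2 difference of 0.46 (adjusted p = 0.00157 by limma). With TGFβ 1 target rose and 0 fell, beside 2.89% and 0.852% of all tested genes. The 1 that rose was again Cited2, with means of 176 ± 9.02 FPKM in XPO4 cells and 137 ± 2.06 FPKM in empty-vector cells (SD, n = 4 each). Its log2 difference was 0.36 (adjusted p = 0.012 by limma). This call was lost without XPO4 library 0 (adjusted p = 0.0542 by limma) or empty-vector library 1 (adjusted p = 0.0516 by limma), and with quantile normalization (0.31, adjusted p = 0.0594 by limma). Lox, which crosslinks collagen, fell at baseline to 157, 149 and 158 FPKM in XPO4 cells, against 193, 212, 243 and 193 FPKM in empty-vector cells. Its log2 difference was -0.43 (adjusted p = 0.033 by limma), and the call was lost without XPO4 library 0, 1 or 2 or empty-vector library 1, with adjusted p-values of 0.0902 to 0.126 by limma. It was also lost with no filter (0.0621), the library set block (0.0606), no intensity trend (0.0834) and all 4 groups in 1 fit (0.102), each an adjusted p by limma.

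Under TGFβ some of these targets rose in both kinds of cell, among them Lox and Edn1, which TGFβ itself is known to induce. In XPO4 cells 4 of 32 rose and 1 fell. Lox (log2 difference 0.87, adjusted p = 0.00264 by limma), the vasoconstrictor peptide gene Edn1 (0.72, adjusted p = 0.000221 by limma) and the repressor Bhlhe40 (0.61, adjusted p = 0.00647 by limma) were among those that rose. The 1 that fell was Stc2 (-0.66, adjusted p = 0.0421 by limma), named here after its value was seen. That call was lost with no filter, with a minimum of 5 FPKM, on the TPM scale, with the library set block and in 11 of 15 fits with 1 library left out. Of all tested genes, 1.19% were called higher and 0.577% lower in this comparison. Without TGFβ, mean Bhlhe40 was 24.2 FPKM in XPO4 cells and 31.7 FPKM in empty-vector cells, and with TGFβ 37.7 and 36.7 FPKM. Mean Edn1 was 12.5 and 14.8 FPKM without TGFβ, and 21.3 and 19.6 FPKM with it. For the interaction 0 of the 32 targets passed with limma. At an unadjusted p under 0.05, 3 were higher and 0 lower, beside 2.88% of all genes in either direction.

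In empty-vector cells 4 of 32 rose and 0 fell, with 1 lower at an unadjusted p under 0.05 by limma. Of all tested genes, 1.24% were called higher and 0.536% lower, with 5.68% lower by unadjusted p. Lox (log2 difference 0.78, adjusted p = 0.00359 by limma), the cyclin gene Ccng2 (0.53, adjusted p = 0.0365 by limma) and Edn1 (0.38, adjusted p = 0.018 by limma) were among those that rose. The Edn1 call was lost without empty-vector library 0 or 3 at baseline or 0 or 1 with TGFβ, with an adjusted p up to 0.068 by limma. The Ccng2 call was lost without any single empty-vector library of either treatment or XPO4 library 0 with TGFβ, with an adjusted p up to 0.118 by limma, and with no filter (adjusted p = 0.0616 by limma).

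Of 9 VEGF ligands and receptors other than Vegfa, 6 were tested, and the receptors Kdr and Flt4 stayed under 1 FPKM in every group mean. Vegfc, the ligand of lymphatic vessel growth, was at 11.9, 10.4, 7.37 and 9.45 FPKM in XPO4 cells with TGFβ, against 4.75, 5.59, 5.21 and 3.93 FPKM in empty-vector cells with TGFβ. The groups did not overlap, with a log2 difference of 0.87 (adjusted p = 0.0106 by limma), whereas Vegfa had 0.17. Against the 2.9, 4.25 and 4.89 FPKM of untreated XPO4 cells, Vegfc rose by a log2 difference of 1.11 with TGFβ (adjusted p = 0.00246 by limma). It was also higher with TGFβ in every empty-vector library than in the untreated ones, at 2.96, 3.22, 2.44 and 2.6 FPKM, but was not called. The ratio of mean FPKM, treated to untreated, was 2.43 in XPO4 cells and 1.74 in empty-vector cells. For the interaction 0 of the 6 genes passed with limma, and 0 had an unadjusted p under 0.05, beside 2.88% of all genes. No gene of this list passed with limma for XPO4 at baseline, with 0 at an unadjusted p under 0.05, or for TGFβ in empty-vector cells, with 3 of 6 higher at an unadjusted p under 0.05 beside 5.81% of all tested genes. In empty-vector cells 1 gene of the list was called higher under TGFβ on the TPM scale, with array weights and in 3 of 15 fits with 1 library left out.

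On mm10, with GENCODE M21 annotation, Hif1a is at chr12:73901375-73947530 (+), Egln3 at chr12:54178981-54203860 (-), Slc2a1 at chr4:119108711-119137983 (+), Hk1 at chr10:62268855-62379908 (-) and Hk2 at chr6:82725025-82774454 (-). Pgk1 is at chrX:106187100-106203699 (+), Ldha at chr7:46841475-46855627 (+), Pdk1 at chr2:71873224-71903858 (+), Bnip3 at chr7:138890836-138909519 (-) and Vegfa at chr17:46016993-46032369 (-). All 10 are annotated as protein-coding.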

How the data were processed

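RNA sequencing of 15 JS1 libraries in 4 groups was analysed from the values as deposited. Per the labels' protocols, RNA was selected on poly-T beads and libraries were made strand-specific with dUTP. The tools named per the submitters' processing notes are CASAVA 1.8.2 and STAR 2.7.2b, and the same notes list mm10 and GRCh38 without a role. The name of the program that computed expression was not given in the sources used here. As deposited, the values are FPKM, per the file headers and the values themselves, in 1 table for baseline and 1 for TGFβ, each with 38277 identifiers. They hold no counts and their low values show no common step, so depth and counting intervals are unknown.

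Groups came from titles and characteristics. Genes that averaged 1 FPKM or more were tested on log2(FPKM + 1) with limma 3.58.1 (intensity trend) in R 4.3.3, with Benjamini-Hochberg adjustment over all genes and a threshold of 0.05. XPO4 effects were fitted within a table, TGFβ effects and the interaction on all 15 libraries joined by identifier. A change understates low genes on this scale. The limma code was tested on simulated data. Plots used matplotlib 3.10.9 under Python 3.11.15. Promoter windows and their build are from RefSeq tables that held all 10 genes, and positions are from GENCODE M21.

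The members and the gene lists were chosen with earlier results of these data known. All 10 members are named in every comparison. From each list the text names up to 4 called genes per comparison, those with the smallest p (1 such gene is not reported here), and for Hif1a the 5 genes with the highest r over the libraries. Alternatives were pseudocounts of 0.5 and 0.1, no filter or 5 FPKM, quantile normalization, the TPM scale, median centring, blocks by replicate number and library set, no trend, array weights, 1 fit of all 4 groups, and each library left out in turn.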

Additional observations from a re-analysis of the deposited data

How the results depend on the processing

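No member called in the results above changed direction under any alternative run. The sign changes were all of uncalled differences near 0. At baseline they were Pgk1 (0.01 with the replicate block, -0.07 to 0.04 with 1 library left out), Ldha (-0.02 on the TPM scale, -0.01 with array weights, -0.04 to 0.06 with 1 library left out) and Hif1a (-0.11 to 0.06 with 1 library left out). For XPO4 with TGFβ they were Ldha (-0.01 with quantile normalization, -0.02 on the TPM scale, -0.02 to 0.08 with 1 library left out), Hif1a (-0.21 to 0.00) and Pgk1 (-0.01 to 0.17). For TGFβ in XPO4 cells they were Bnip3 (0.01 with quantile normalization and with the replicate block, -0.18 to 0.09 with 1 library left out), Hk1 (-0.01 to 0.06), Slc2a1 (-0.09 to 0.00) and Hif1a (-0.18 to 0.00), and in empty-vector cells Hif1a (0.00 with quantile normalization, 0.01 on the TPM scale, -0.11 to 0.08 with 1 library left out) and Egln3 (-0.20 to 0.09). For the interaction they were Ldha (-0.04 with quantile normalization, -0.00 on the TPM scale and with the replicate block, -0.04 to 0.07 with 1 library left out), Vegfa (0.01 with the replicate block, -0.07 to 0.03 with 1 library left out), Hif1a (-0.17 to 0.04), Hk2 (-0.17 to 0.07) and Pgk1 (-0.01 to 0.17). Differences within the 2 runs of library codes, taken without a test, also changed sign. For XPO4, libraries 0 and 1 gave Hif1a 0.09 and Ldha -0.01 at baseline, and Pgk1 -0.02 with TGFβ. For TGFβ, libraries 2 and 3 (library 2 alone for untreated XPO4 cells) gave Hif1a 0.09, Slc2a1 0.03 and Bnip3 0.14 in XPO4 cells. In empty-vector cells these libraries gave Hif1a 0.01.

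The number of members called changed as follows. For XPO4 at baseline it was 0 to 1 higher with 1 library left out. For XPO4 with TGFβ it was 1 higher with array weights and with all 4 groups in 1 fit. For TGFβ in XPO4 cells it was 0 to 1 lower with 1 library left out. For TGFβ in empty-vector cells it was 1 higher and 1 lower with array weights, and 0 to 1 lower with 1 library left out. The cause was not tested. The labels do not say whether replicate numbers pair the libraries. Same-numbered libraries had correlated deviations of -0.15 to 0.25, which cannot settle this in groups so small. With the replicate block the count was 0 higher for XPO4 at baseline (Hk1 0.51, adjusted p = 0.0877 by limma), 1 higher for XPO4 with TGFβ (Bnip3 0.42, adjusted p = 0.0429 by limma) and 1 higher for TGFβ in empty-vector cells (Vegfa 0.29, adjusted p = 0.0494 by limma), and the calls of Xpo4 (0.87, adjusted p = 0.0891 by limma), Pdk3 (adjusted p = 0.0981), Lox (adjusted p = 0.0951) and Slc2a3 (adjusted p = 0.0966) were lost. The call of Stc2 for TGFβ in XPO4 cells was lost with this block as well.

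Counts over all genes also moved. At baseline 340 were higher and 103 lower, against 205 and 19 with the replicate block, 63 lower with the library set block, and 224 to 346 higher and 46 to 105 lower with 1 library left out. With TGFβ 102 were lower in XPO4 cells, against 155 on the TPM scale, 230 with all 4 groups in 1 fit and 54 to 92 with 1 library left out. For TGFβ in XPO4 cells 142 were higher and 69 lower, against 110 lower with array weights and 87 to 147 higher and 30 to 73 lower with 1 library left out. In empty-vector cells 148 were higher and 64 lower, against 114 lower with array weights and 77 to 165 higher and 31 to 78 lower with 1 library left out. The interaction had 0 calls, against 1 on the TPM scale and 0 to 1 with 1 library left out. Depth is unknown and could not be weighed, and scaling moved the median of all genes by at most 0.06.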
